A study of Mus musculus with 18 samples.

Results

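Lhx2, the Msx genes Msx1 and Msx2, and the Dlx genes Dlx1 to Dlx6 are 9 homeobox genes. They were picked by name from a table of 24376 mouse genes, with earlier results of these data known. The shares of all tested genes set beside their counts are therefore description only. All 9 genes passed the filter on low counts that left 17269 genes for testing. They were measured by RNA-seq in 18 libraries of embryonic mammary epithelium, freed from buds 1 to 3 by enzymes and dissection by hand, with each library a pool of 2 to 3 littermates of 1 genotype. The stabilized embryos carried Krt14Cre and 1 Ctnnb1 allele with exon 3 between loxP sites, so that Cre, driven by the keratin 14 promoter of the surface epithelium, removes the exon and the β-catenin made from this allele resists breakdown, while the other allele is wild type. The controls were littermates with the same Ctnnb1 allele and no Cre, so effects of Cre alone cannot be told apart from those of stabilized β-catenin. All embryos were of a mixed C57Bl/6 and NMRI strain. The groups were 5 stabilized and 5 control libraries at E16.5, from female embryos, and 4 stabilized and 4 control libraries at E13.5, where male and female embryos were used, so stage and sex makeup cannot be told apart. The question was how the homeobox genes of skin appendages respond in mammary buds when canonical Wnt signalling is held active, at the bud stage and again when the gland sprouts.

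Homeobox genes code for transcription factors that bind DNA through a homeodomain and set the identity of tissues and appendages. LHX2 is a LIM-homeodomain factor of hair follicle placodes and of follicle stem cells, and it acts through the cofactor LDB1. MSX1 and MSX2 are mainly repressors that are expressed in budding epithelia and the mesenchyme beneath them, classic targets of Bmp signals, and mouse embryos without both genes fail to carry mammary buds forward. DLX factors are related to Drosophila Distal-less and recognise the same TAAT core. The mouse Dlx genes lie in convergent pairs: DLX1 and DLX2 are best known from forebrain interneurons, jaws and teeth, DLX3 from hair follicles and epidermis, and DLX5 and DLX6 from limbs, bone and jaws, while DLX4 is the least studied.

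In the GRCm38/mm10 build (GENCODE M21), Lhx2 (ENSMUSG00000000247) occupies chr2:38339281-38369733 on the plus strand. Msx1 (ENSMUSG00000048450) lies at chr5:37820485-37824583 and Msx2 (ENSMUSG00000021469) at chr13:53466884-53473074, both on the minus strand. Dlx1 (ENSMUSG00000041911, chr2:71528113-71533981, plus) faces Dlx2 (ENSMUSG00000023391, chr2:71543408-71546754, minus) across 9426 bases. Dlx3 (ENSMUSG00000001510, chr11:95120119-95125296, plus) faces Dlx4 (ENSMUSG00000020871, chr11:95140447-95146263, minus) across 15150 bases. Dlx6 (ENSMUSG00000029754, chr6:6863334-6868568, plus) faces Dlx5 (ENSMUSG00000029755, chr6:6877805-6882085, minus) across 9236 bases. Annotated antisense transcripts overlap Lhx2, Dlx1, Dlx4 and Dlx6; they were not analysed here, and since the strand setting of the counting is not given, reads of these genes and of their antisense partners cannot be told apart.

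The sequence just upstream of the start site was held in the RefSeq table (GRCm38.p6) for 5 of the 9 genes, as 6 windows because Lhx2 has 2 start sites. A window per family is printed here, each 250 bases long and ending at the base before the start site, from genes that rose in stabilized buds at both stages; capitals mark CpG dinucleotides. The windows are chr2:38339031-38339280 (plus strand) for Lhx2, chr5:37824586-37824835 (minus strand) for Msx1 and chr2:71546755-71547004 (minus strand) for Dlx2.
Lhx2: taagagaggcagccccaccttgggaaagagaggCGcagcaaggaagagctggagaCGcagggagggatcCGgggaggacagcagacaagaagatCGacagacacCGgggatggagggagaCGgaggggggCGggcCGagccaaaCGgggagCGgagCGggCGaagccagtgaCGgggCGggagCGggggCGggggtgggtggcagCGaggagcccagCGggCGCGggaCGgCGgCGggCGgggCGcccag
Msx1: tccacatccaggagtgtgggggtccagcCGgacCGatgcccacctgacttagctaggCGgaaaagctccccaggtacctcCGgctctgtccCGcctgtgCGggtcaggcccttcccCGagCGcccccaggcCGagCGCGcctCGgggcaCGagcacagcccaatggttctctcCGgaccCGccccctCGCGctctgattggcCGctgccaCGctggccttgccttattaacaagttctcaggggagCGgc
Dlx2: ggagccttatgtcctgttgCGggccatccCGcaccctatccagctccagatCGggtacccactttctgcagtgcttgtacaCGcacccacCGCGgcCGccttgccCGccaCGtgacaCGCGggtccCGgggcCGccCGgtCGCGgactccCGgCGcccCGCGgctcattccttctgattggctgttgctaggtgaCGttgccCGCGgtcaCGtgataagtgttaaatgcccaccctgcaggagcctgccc
All 3 were rich in CpG, with 25 CpG dinucleotides upstream of Lhx2, 20 upstream of Msx1 and 24 upstream of Dlx2, against a median of 6 in all 32851 mouse promoters of the same length. As many or more were found in 10.7% of all promoters for Lhx2, in 17.9% for Msx1 and in 12.0% for Dlx2. Across the 6 windows the count ran from 16 to 25 and the GC share from 61.6% to 72.8%. The windows were searched on both strands for the TCF/LEF motifs CTTTGAT and CTTTGAA and also CTTTGTT and CTTTGTA, which are bound by the partners of β-catenin. None of the 6 windows held any of these letters, and 14.8% of all promoters did. The homeodomain motifs TAATTA and TAATTG overlap each other in their TAATT core; TAATTA was found once, 181 bases before the start site of Msx2, and 11.3% of all promoters held either motif. These are descriptions of letters in 1 short window per start site.

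Library totals ran from 26768810 to 36922108 counts, and levels are given as CPM, counts set relative to the TMM-scaled library total so that libraries of different depth can be compared. The targeted gene Ctnnb1 averaged 2278 ± 564 CPM in stabilized and 1248 ± 111 CPM in control buds at E16.5 (SD, n = 5 each; log2 fold change 0.87 ± 0.15 SE, edgeR adjusted p = 9.02e-05), and 3260 ± 347 CPM against 2683 ± 333 CPM at E13.5 (SD, n = 4 each; edgeR adjusted p = 0.307); whole-gene counts do not show whether exon 3 is present. Krt14, the source of the Cre promoter, averaged 519 ± 244 CPM in stabilized and 671 ± 70.0 CPM in control buds at E16.5 (edgeR adjusted p = 0.189), and 349 ± 62.9 CPM against 813 ± 104 CPM at E13.5 (log2 fold change -1.22 ± 0.25, edgeR adjusted p = 0.00169). The summed level of 8 epithelial markers was 3744 to 6918 CPM in stabilized and 2664 to 3035 CPM in control buds at E16.5, where 3 of them rose and 4 fell, and 3118 to 3857 CPM against 3908 to 4394 CPM at E13.5, where 1 rose and 3 fell. Epcam, an epithelial adhesion protein, averaged 212 ± 27.8 CPM in stabilized and 415 ± 10.5 CPM in control buds at E16.5 (log2 fold change -0.97 ± 0.11, edgeR adjusted p = 6.71e-07), and 260 ± 19.2 CPM against 310.4 ± 44.9 CPM at E13.5 (edgeR adjusted p = 0.181). It was at 178.9 CPM or more in every library, against at most 10.02 CPM for the endothelial marker Pecam1 and 2.35 CPM for the leukocyte marker Ptprc. The summed level of 13 mesenchymal markers was 1411 to 1809 CPM in stabilized and 1135 to 1646 CPM in control buds at E16.5, and 1390 to 1519 CPM against 950.2 to 1404 CPM at E13.5. Of these markers 2 rose and 3 fell at E16.5, and 1 rose, 1 fell and 11 were not called at E13.5. Their median log2 fold change was 0.44 at E16.5 and -0.68 at E13.5. Single abundant markers weigh heavily in the sums: at E13.5 Postn averaged 488 CPM in stabilized and 88.0 CPM in control buds, and Vim 203 CPM against 463 CPM. The summed level of 9 neural and Schwann cell markers was 239 to 365 CPM in stabilized and 898 to 1021 CPM in control buds at E16.5, and 349.6 to 389 CPM against 163 to 227 CPM at E13.5. Of these markers 2 rose, 3 fell and 4 were not called at E16.5, and 2 rose and 7 were not called at E13.5. Tubb3, a neuronal tubulin, rose at both stages, to 72.1 CPM in stabilized against 5.11 CPM in control buds at E16.5 and to 183 CPM against 8.32 CPM at E13.5. Other neuronal markers were low. Elavl4 averaged 1.76 CPM in stabilized and 1.35 CPM in control buds at E16.5, and 1.21 CPM against 0.385 CPM at E13.5. Stmn2 averaged 1.17 CPM against 0.0455 CPM at E16.5, and 0.303 CPM against 0 CPM at E13.5. Sox10, a neural crest and Schwann cell factor, averaged 29.6 CPM in stabilized and 554 CPM in control buds at E16.5, and 8.16 CPM against 1.32 CPM at E13.5. The melanocyte markers summed to 166 to 255 CPM in stabilized and 99.9 to 167 CPM in control buds at E16.5, and to 14.9 to 28.8 CPM against 21.2 to 25.3 CPM at E13.5. The 8 immune markers summed to 10.2 to 19.6 CPM in stabilized and 22.3 to 26.5 CPM in control buds at E16.5, and to 4.71 to 7.18 CPM against 3.37 to 4.67 CPM at E13.5. The part of other cell types in the results was not tested. In such bulk samples, fewer cells of a type and less RNA per cell cannot be told apart. Among libraries, the stabilized E13.5 replicate 2 was well below the other 3 of its group for most Msx and Dlx genes but not for Lhx2, as shown further on. The mitochondrial share of counts was 2.62% to 5.36% in stabilized and 2.21% to 3.88% in control libraries at E16.5, with 4 of 5 stabilized libraries above every control. It was 1.79% to 2.45% against 2.18% to 4.18% at E13.5, where control replicate 3 was the highest. The part of these shares in the results was not tested.

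At E16.5, 8 of the 9 genes rose in stabilized buds, against 22.2% of all tested genes called higher (adjusted p under 0.05), and for all 9 genes every stabilized library was above every control library, against 18.4% of all tested genes. Lhx2 and the pair Dlx1 and Dlx2, which control buds barely expressed, averaged 106 to 303 CPM in stabilized buds, and the means of Msx1, Msx2 and Dlx3 were 49.3, 42.5 and 15.5 times the control mean. The median log2 fold change of the 9 genes was 5.41, beside 0.10 over all tested genes.

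Lhx2 had 204, 262, 154, 134 and 186 CPM in the stabilized E16.5 libraries, against 0.175, 0.097, 0.188, 0.268 and 0.357 CPM in the controls. The controls held 3 to 10 counts of this gene each. Its log2 fold change was 9.75 ± 0.52 (edgeR adjusted p = 2.59e-10), and it stayed past the threshold in all 26 alternative analyses.

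Msx1 had 46.7, 45.9, 48.8, 35.2 and 36.0 CPM in stabilized buds, against 0.963, 0.873, 1.13, 1.24 and 0.107 CPM in controls. Msx2 had 160.3, 141, 126, 125 and 177 CPM in stabilized buds, against 2.33, 4.11, 3.83, 3.62 and 3.25 CPM in controls. The spread within each group was small beside the gap between the groups for both genes. The log2 fold changes were close to each other, 5.61 ± 0.41 for Msx1 (edgeR adjusted p = 1.00e-08) and 5.41 ± 0.41 for Msx2 (edgeR adjusted p = 1.97e-08).

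Dlx1 had 103, 133, 95.5, 83.5 and 113 CPM in stabilized buds, against 0, 0.194, 0.0376, 0.100 and 0 CPM in controls, where 2 libraries held no count and all 5 together held 10. Its partner Dlx2 had 305, 387, 246, 202 and 376 CPM in stabilized buds, against 0.321, 0.291, 0.150, 0.603 and 0 CPM in controls. Both genes of this pair were thus near the limit of detection in control buds, and their fitted log2 fold changes, 10.54 ± 1.29 for Dlx1 (edgeR adjusted p = 9.15e-06) and 10.07 ± 0.86 for Dlx2 (edgeR adjusted p = 1.94e-07), rest on few control counts. Dlx3, a regulator of hair shaft and epidermal differentiation, had 369, 256, 225, 156 and 329 CPM in stabilized buds, against 16.9, 14.4, 17.0, 19.6 and 18.2 CPM in controls. Its log2 fold change was 3.95 ± 0.30 (edgeR adjusted p = 1.56e-08).

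Its neighbour Dlx4 had 11.6, 10.7, 9.16, 8.64 and 8.28 CPM in stabilized buds, against 4.00, 1.45, 2.63, 2.21 and 2.25 CPM in controls. The groups did not overlap, but the difference of 1.94 ± 0.83 missed the threshold (edgeR adjusted p = 0.0684), and the adjusted p ran from 7.63e-05 to 0.131 over 26 alternatives, 6 of which called it: DESeq2, the replicate block, the fit to the E16.5 libraries alone, and the fits without E13.5 control replicate 1, E13.5 control replicate 2 or E13.5 stabilized replicate 2. Dlx5 had 41.1, 48.4, 29.0, 45.6 and 49.1 CPM in stabilized buds, against 6.36, 4.91, 5.04, 5.83 and 2.57 CPM in controls (log2 fold change 3.11 ± 0.54, edgeR adjusted p = 0.000177). Dlx6 had 4.52, 5.68, 3.03, 6.14 and 8.62 CPM in stabilized buds, against 0, 0.323, 0, 0.100 and 0.286 CPM in controls (log2 fold change 5.26 ± 1.17, edgeR adjusted p = 0.00163). With the gene-wise factors of the deposited normalized table in place of TMM, the Dlx6 call was lost (log2 fold change 3.96, adjusted p = 0.0526).

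**Figure D1:**
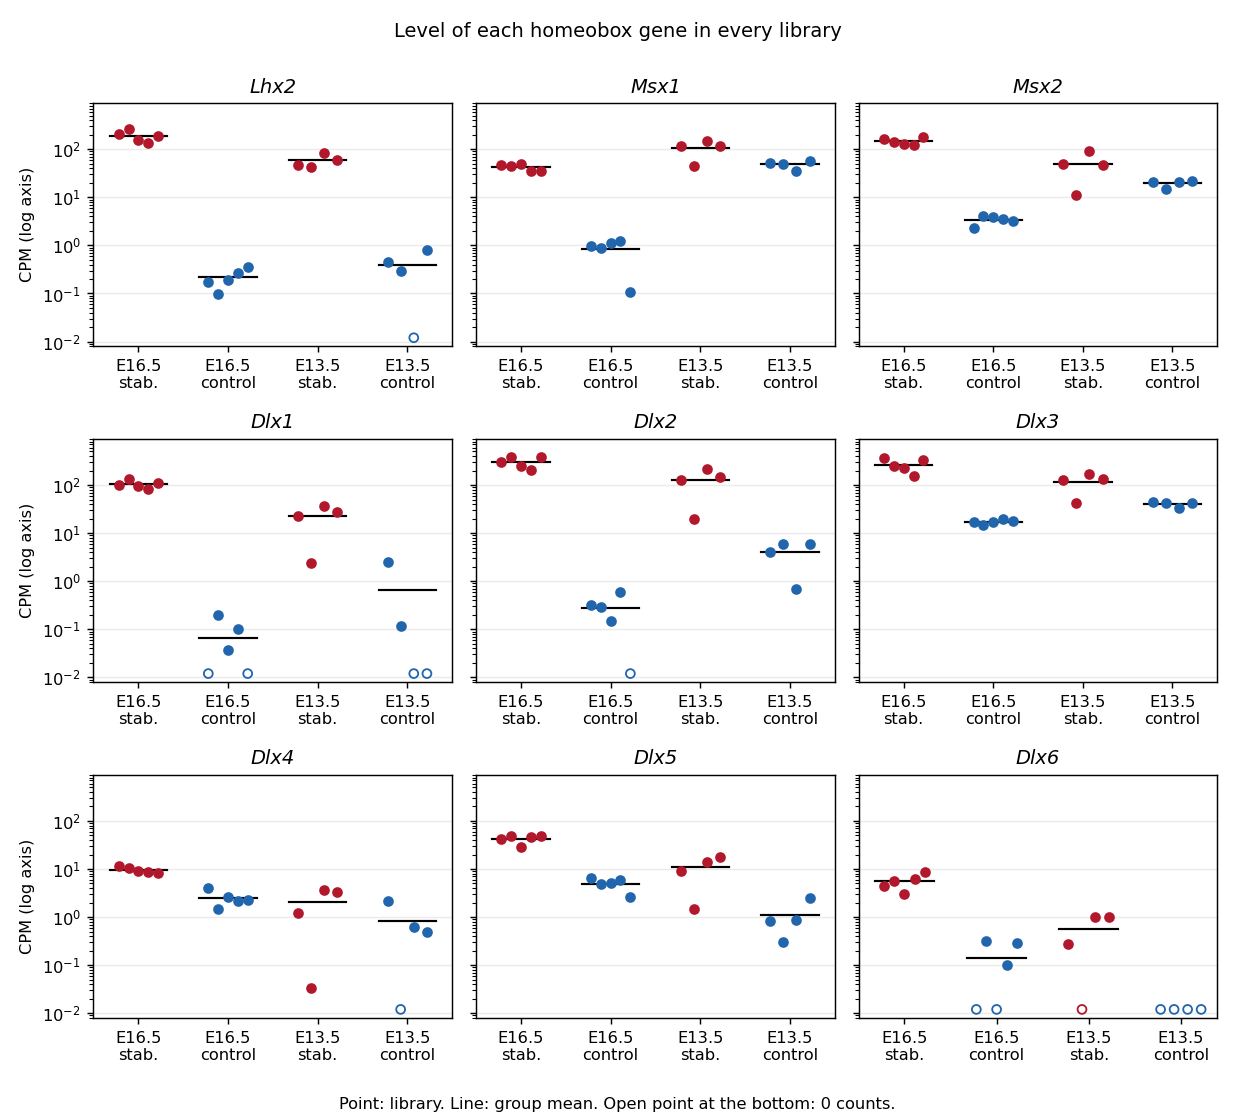
Level of each of the 9 homeobox genes in all 18 libraries, in CPM on a log axis, with stabilized libraries in red, control libraries in blue and group means as lines; open points mark libraries with 0 counts. At E16.5 all stabilized libraries lie above all controls for every gene, and at E13.5 this holds for Lhx2 and Dlx2.

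At E13.5, 8 of the 9 genes also rose in stabilized buds, against 9.58% of all tested genes called higher, but with smaller changes for most and with far more spread within the stabilized group. Every stabilized library was above every control library for Lhx2 and Dlx2, 2 of the 9 genes, against 9.93% of all tested genes. The median log2 fold change of the 9 genes was 3.28, and it was the same with Dlx6, which had no counts in controls, set at its lower bound; over all tested genes the median was 0.01.

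Lhx2 had 47.5, 42.5, 84.8 and 59.2 CPM in stabilized E13.5 libraries, against 0.444, 0.297, 0 and 0.809 CPM in controls. It was the most clear-cut member at this stage, with a log2 fold change of 7.22 ± 0.52 (edgeR adjusted p = 6.40e-08). Dlx2 had 126, 19.9, 212 and 146 CPM in stabilized buds, against 3.96, 5.83, 0.702 and 5.82 CPM in controls (log2 fold change 4.95 ± 0.73, edgeR adjusted p = 0.000201). The second stabilized library was the low one, yet it was still above every control.

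Msx1 had 118, 45.4, 149 and 115 CPM in stabilized buds, against 52.6, 49.8, 35.5 and 57.1 CPM in controls. Msx2 had 50.3, 11.2, 91.4 and 47.6 CPM in stabilized buds, against 20.8, 14.7, 21.0 and 21.5 CPM in controls. For both Msx genes 3 stabilized libraries were above all controls and the second was inside or below the control range. Their log2 fold changes, 1.13 ± 0.37 for Msx1 (edgeR adjusted p = 0.0462) and 1.36 ± 0.39 for Msx2 (edgeR adjusted p = 0.0233), passed the threshold narrowly. The Msx1 call was lost in 20 of 26 alternatives, with adjusted p from 0.00479 to 0.154, and in 16 of the 18 fits that left out 1 library. The Msx2 call was lost in 6 of 26, with adjusted p from 1.98e-05 to 0.147: its log2 fold change was 1.39 without control replicate 1 (adjusted p = 0.0509), 1.25 without control replicate 2 (adjusted p = 0.0753) and 0.90 without stabilized replicate 3 (adjusted p = 0.109).

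Dlx3 had 125, 43.4, 168 and 134 CPM in stabilized buds, against 45.4, 42.0, 32.7 and 41.9 CPM in controls (log2 fold change 1.54 ± 0.31, edgeR adjusted p = 0.00200). Dlx1 had 22.5, 2.39, 37.4 and 27.1 CPM in stabilized buds, against 2.51, 0.119, 0 and 0 CPM in controls (log2 fold change 5.04 ± 1.07, edgeR adjusted p = 0.00402). Control replicate 1 thus held 85 of the 89 Dlx1 counts of its group, and without it the log2 fold change was 8.91. With the E13.5 libraries fitted alone the Dlx1 difference was of the same size, 5.05, but missed the threshold (adjusted p = 0.114).

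Dlx5 had 9.30, 1.49, 14.3 and 18.1 CPM in stabilized buds, against 0.828, 0.297, 0.870 and 2.46 CPM in controls (log2 fold change 3.28 ± 0.63, edgeR adjusted p = 0.00145). Dlx6 had 0.274, 0, 1.00 and 1.01 CPM in stabilized buds and no count in any of the 4 controls (edgeR adjusted p = 0.00829). Set against a floor of 3 counts over the 4 controls, its mean was at least 24.5-fold higher; with the factors of the deposited normalized table the Dlx6 call was lost (adjusted p = 0.0552). Dlx4 had 1.23, 0.0332, 3.60 and 3.30 CPM in stabilized buds, against 2.19, 0, 0.635 and 0.485 CPM in controls, so that its groups overlapped and no change was called (log2 fold change 1.30 ± 0.93, edgeR adjusted p = 0.429).

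The stabilized E13.5 replicate 2 was the lowest of its group for all 9 genes, but by very different amounts. Lhx2 was at 89.3% of the lowest of the other 3 libraries, while Msx1 was at 39.6%, Dlx3 at 34.7%, Msx2 at 23.6%, Dlx5 at 16.1%, Dlx2 at 15.8%, Dlx1 at 10.6% and Dlx4 at 2.69%. This library was under 50% of the lowest other library for 7 of the 8 homeobox genes with at least 1 CPM in the other 3, and for 3.09% of the 13060 tested genes at such levels. Its level was above all controls for Lhx2 and Dlx2 only. In the other 3 libraries, 8 of the 9 genes were above all controls, the exception being Dlx4, against 13.3% of all tested genes. Replicate 2 was set apart because it was low for these genes, so their count rises by that choice and is not a test.

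Without replicate 2, the same number of genes, 8 of 9, was called at E13.5, and the log2 fold changes of the called genes were larger: 7.34 for Lhx2, 1.39 for Msx1, 1.69 for Msx2, 5.42 for Dlx1, 5.30 for Dlx2, 1.81 for Dlx3 and 3.64 for Dlx5. Leaving out the lowest library of a group raises its mean, so larger values were fixed by this choice. The summed epithelial markers of replicate 2 were 3118 CPM, against 3174 to 3857 CPM in the other 3, and its summed mesenchymal markers 1390 CPM, against 1448 to 1519 CPM. Of 14558 genes with a mean of at least 1 CPM, 3.53% were under 50% of the lowest other library in replicate 2, against 1.47% to 2.03% when each of the other 3 was taken in its place. Why it was low was not tested.

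Bmp pathway genes were set beside this pattern, since Msx and Id genes are known Bmp targets. In replicate 2 the level was under 50% of the lowest other library for 7 of 24 Bmp pathway genes at 1 CPM or more. This was 29.2% of the list, against 3.09% of all tested genes at such levels. The 7 genes were Bmp5, Smad9, Id1, Id2, Id4, Bambi and Fst, which were picked here after their values were seen. Id1 and Id2, direct targets of Bmp receptor signals, had 64.1 and 51.0 CPM in replicate 2, against at least 157 and 154 CPM in the other 3. Bambi, a decoy receptor that Bmp signals induce, had 36.5 CPM against at least 107 CPM. Other genes of this list were not under 50%, among them Id3 at 51.2%, Smad6 at 84.1% and Smad7 at 98.7% of the lowest other library. Whether the Bmp response differed in replicate 2 was not tested. The ligand gene Bmp5 had 0.133 CPM in replicate 2, against at least 2.12 CPM in the other 3. The more abundant ligand genes were not low in this way: Bmp4 had 251 CPM in replicate 2 against 285 to 395 CPM in the other 3, Bmp7 had 301 CPM against 282 to 310 CPM, and Bmp2 had 249 CPM against 228 to 301 CPM. The share was larger among LIM-homeobox genes and cofactors, with 5 of 13 (38.5%) under 50%, namely Lhx9, Isl1, Isl2, Lmo2 and Lmo3. Of the hair follicle factors 3 of 22 (13.6%) and of other homeobox genes 3 of 29 (10.3%) were under 50%, against 3.09% of all tested genes.

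**Figure D2:**
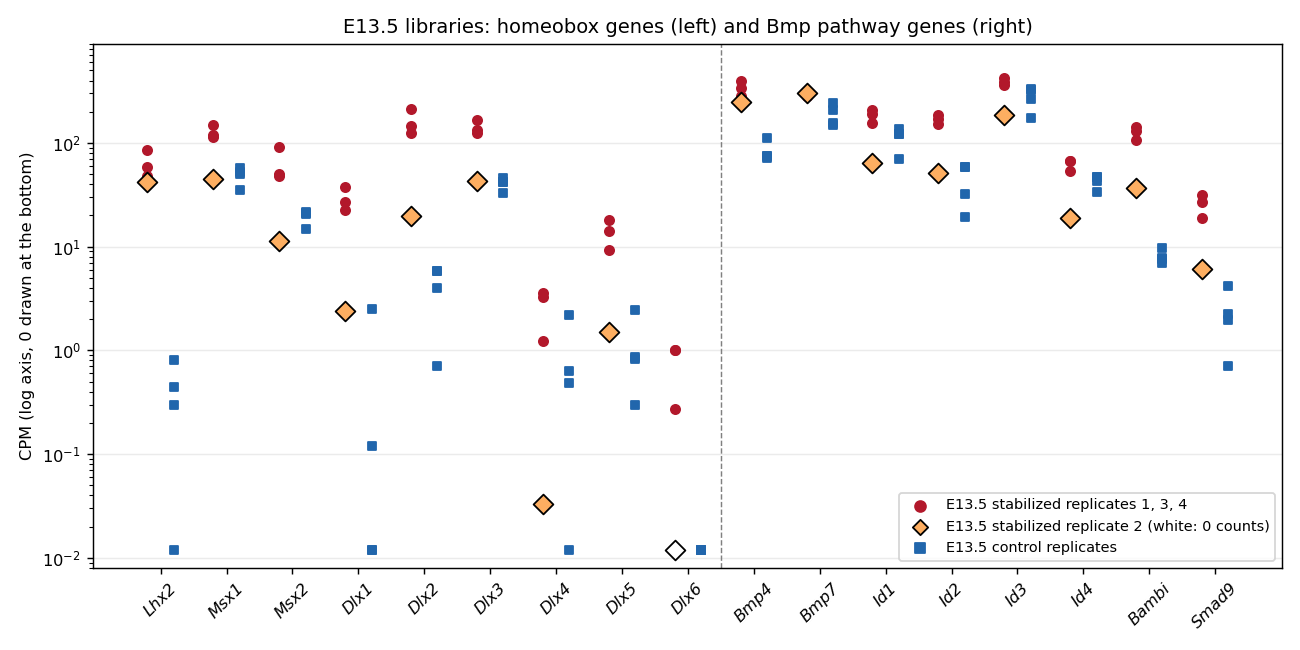
CPM on a log axis of the 9 homeobox genes and of 8 of the 25 Bmp pathway genes in the E13.5 libraries. The 8 were picked by hand. In the whole list, 7 of 24 genes at 1 CPM or more were under 50% of the lowest other library in replicate 2. Stabilized replicates 1, 3 and 4 are red points, stabilized replicate 2 is a diamond and controls are blue squares. Values of 0 are drawn at the bottom edge. Replicate 2 lies with the other stabilized libraries for Lhx2, Bmp4 and Bmp7, and in or near the control range for most Msx and Dlx genes, Id2 and Id3. It lies just below the control range for Id1, further below it for Id4, and above all controls for Bambi and Smad9.

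The genotype effect was larger at E16.5 than at E13.5 for 6 of the 9 genes by the test of the difference itself, against 15.6% of all tested genes. The log2 difference of the effects was 2.53 ± 0.70 for Lhx2 (edgeR adjusted p = 0.0104), 4.48 ± 0.53 for Msx1 (edgeR adjusted p = 6.03e-06) and 4.05 ± 0.53 for Msx2 (edgeR adjusted p = 2.05e-05). It was 5.49 ± 1.65 for Dlx1 (edgeR adjusted p = 0.0188), 5.12 ± 1.00 for Dlx2 (edgeR adjusted p = 0.00102) and 2.42 ± 0.41 for Dlx3 (edgeR adjusted p = 0.000218). Dlx4, Dlx5 and Dlx6 were not called; the difference for Dlx5 was -0.17 ± 0.76 (edgeR adjusted p = 0.909). The Dlx1 difference rested on control E13.5 replicate 1 and was 1.62 without it (adjusted p = 0.637). The Lhx2 difference was 1.92 without control E13.5 replicate 4 (adjusted p = 0.0543). Such a difference takes in the stage change of the controls as well as that of stabilized buds. Among the 6 genes, controls fell with stage for Msx1, Msx2, Dlx2 and Dlx3, while stabilized buds rose for Lhx2, Msx2 and Dlx3. Msx1 fell in stabilized buds too, and Dlx2 in controls went from 4.08 CPM at E13.5 to 0.273 CPM at E16.5.

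**Figure D3:**
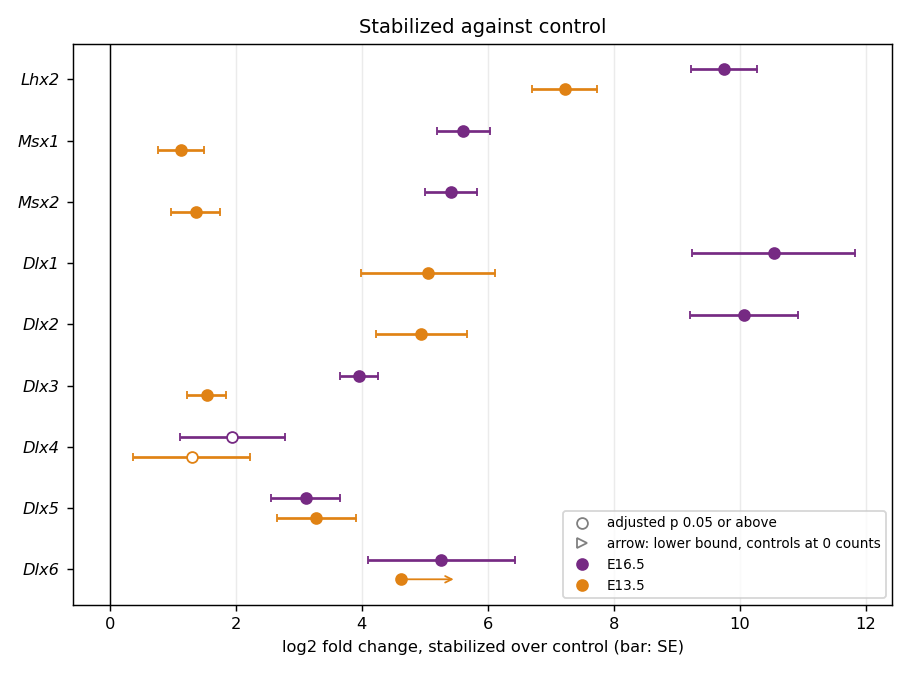
Log2 fold change of stabilized over control for each gene, with SE bars, at E16.5 (purple) and E13.5 (orange); open symbols missed the threshold, and the arrow for Dlx6 at E13.5 starts at the lower bound set by controls with 0 counts. Purple points lie to the right of orange ones for Lhx2, Msx1, Msx2, Dlx1, Dlx2 and Dlx3, by 2.42 to 5.49.

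Stages were also compared within each genotype. In control buds, Msx1, Msx2, Dlx2 and Dlx3 fell between the stages, 4 of 9 genes against 22.6% of all tested genes, while Dlx5 and Dlx6 rose, 2 of 9 against 24.9%. In stabilized buds, Lhx2, Msx2, Dlx3, Dlx5 and Dlx6 rose and Msx1 fell, so that 6 of 9 changed in either direction, against 28.0% of all tested genes. The controls and the stabilized libraries of these comparisons are the same as in the genotype comparisons.

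Msx1 in control buds averaged 0.862 ± 0.445 CPM at E16.5 and 48.8 ± 9.32 CPM at E13.5 (SD, n = 5 and 4), a log2 change of -5.81 ± 0.42 (edgeR adjusted p = 6.66e-09). In stabilized buds it averaged 42.5 ± 6.42 CPM at E16.5 and 107 ± 43.9 CPM at E13.5, a log2 change of -1.33 ± 0.34 (edgeR adjusted p = 0.00755). Msx1 thus fell with stage in both genotypes. Msx2 averaged 3.43 ± 0.687 CPM at E16.5 and 19.5 ± 3.22 CPM at E13.5 in controls, a log2 change of -2.51 ± 0.38 (edgeR adjusted p = 3.92e-05), but 146 ± 22.5 CPM at E16.5 and 50.1 ± 32.8 CPM at E13.5 in stabilized buds, a log2 change of 1.54 ± 0.37 (edgeR adjusted p = 0.00491). The paralogues therefore moved in opposite directions with stage in stabilized buds.

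Dlx3 also fell in controls and rose in stabilized buds, with a log2 change of -1.23 ± 0.29 in controls (edgeR adjusted p = 0.00198) and 1.18 ± 0.29 in stabilized buds (edgeR adjusted p = 0.00560). Dlx2 had a log2 change of -3.86 ± 0.79 in controls (edgeR adjusted p = 0.000861), and its change in stabilized buds, 1.27 ± 0.59, was not called (edgeR adjusted p = 0.131). Dlx5 rose in both genotypes, with a log2 change of 1.98 ± 0.56 in stabilized buds (edgeR adjusted p = 0.0134) and 2.15 ± 0.59 in controls (edgeR adjusted p = 0.00658). Lhx2 rose by 1.68 ± 0.37 in stabilized buds (edgeR adjusted p = 0.00231, or 0.0653 with the deposited scaling), while its change in controls was -0.85 ± 0.60 at levels under 1 CPM (edgeR adjusted p = 0.264). The rise of Dlx6 in stabilized buds, 3.28 ± 1.16 (edgeR adjusted p = 0.0434), was lost in 10 of 24 alternatives. Its rise in controls lay near the limit of detection, from no count at E13.5 to 0.142 ± 0.155 CPM at E16.5 (edgeR adjusted p = 0.0187). The 5 E16.5 controls held 21 counts of Dlx6 in all, 2 of them held none, and the groups overlapped.

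**Figure D4:**
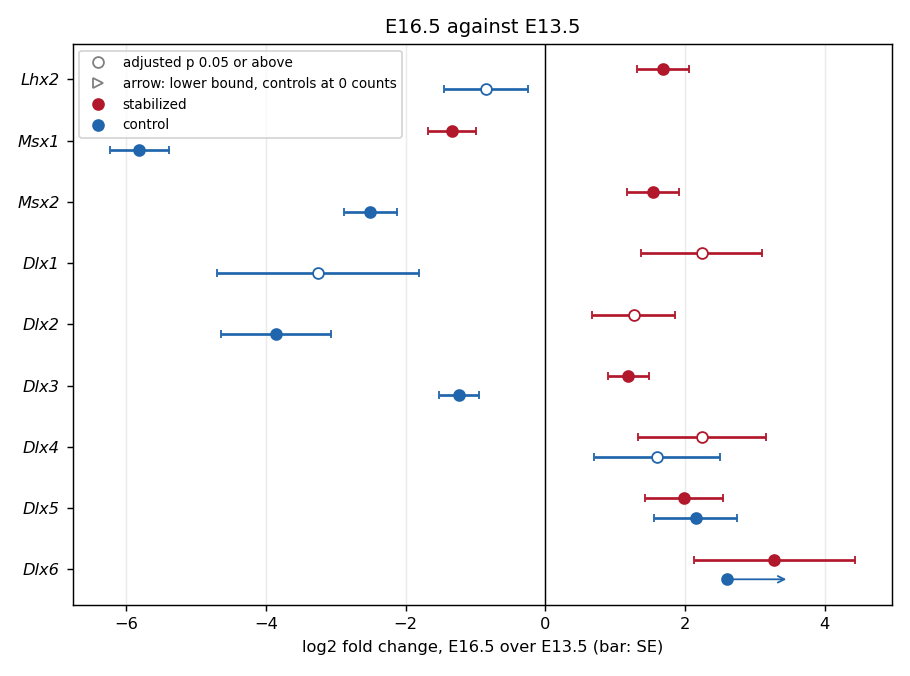
Log2 fold change of E16.5 over E13.5 for each gene, with SE bars, in stabilized (red) and control buds (blue); open symbols missed the threshold, and the arrow for Dlx6 in controls starts at the lower bound set by E13.5 controls with 0 counts. Msx2 and Dlx3 lie on opposite sides of 0 in the 2 genotypes, and Dlx5 lies at about 2 in both.

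Levels of different genes were compared per length, as CPM per kilobase of annotated exon. In stabilized buds at E16.5, Dlx2 and Dlx3 led with 106 ± 28.2 and 102 ± 32.4 CPM per kilobase, and their ranges overlapped. Msx2 with 44.5 ± 6.86 and Lhx2 with 42.8 ± 11.3 came next and overlapped each other, then Dlx1 with 19.6 ± 3.49, Dlx5 with 18.8 ± 3.65 and Msx1 with 13.7 ± 2.07, each overlapping its neighbour, and last Dlx4 with 2.96 ± 0.433 and Dlx6 with 2.36 ± 0.873. In control buds at E16.5, Dlx3 stood above all others with 6.61 ± 0.731 CPM per kilobase, followed by Dlx5 with 2.18 ± 0.642, Msx2 with 1.05 ± 0.209 and Dlx4 with 0.767 ± 0.286, and the other 5 genes averaged 0.278 or less. In stabilized buds at E13.5, Dlx3, Dlx2 and Msx1 led with 45.1 ± 20.3, 44.2 ± 27.9 and 34.5 ± 14.2 CPM per kilobase, and neighbours from Dlx3 down to Lhx2 overlapped. In control buds at E13.5, Msx1 and Dlx3 led with 15.7 ± 3.01 and 15.5 ± 2.10 CPM per kilobase and did not differ beyond their spread, ahead of Msx2 with 5.95 ± 0.982.

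Over the 18 libraries, log2 CPM values of Msx2 and Dlx3 were the most alike among the 9 genes (Pearson r = 0.974), followed by Dlx2 and Dlx3 (0.963), while the lowest coefficients were those of Msx1 with Dlx4 (-0.060) and with Dlx5 (0.174). With group means taken out, Msx2 and Dlx3 correlated at 0.809, Msx1 and Dlx2 at 0.807, Msx1 and Dlx5 at 0.575 and Msx1 and Dlx4 at 0.354. The lowest such coefficient was that of Msx1 and Dlx6 (0.019), and those of Lhx2 with the other 8 ran from 0.097 to 0.509. These coefficients describe libraries that share their groups, and the low stabilized E13.5 replicate 2 is among them. Similar profiles were sought among tested genes with a symbol, leaving out predicted Gm and Rik genes and the other members. The profile of Lhx2 was most like that of Ptch1, the Hedgehog receptor (r = 0.980), Stac (0.980) and Lmo3 (0.979). Msx1 was most like Scube1 (0.978), Bmp2 (0.977) and Pcdh10 (0.973), and Msx2 was most like Id1 (0.980), Ccdc68 (0.968) and Unc5c (0.966). With group means taken out, Msx2 correlated at 0.830 with Id1, 0.841 with Ccdc68 and 0.610 with Unc5c. The stabilized E13.5 replicate 2, which was low for both Msx2 and Id1, is part of these values.

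For the Dlx genes the most similar profiles were Hmx2 (0.970), Stac (0.970) and Lamb3 (0.968) for Dlx1, Fyco1 (0.967), Frmd4b (0.966) and Crim1 (0.965) for Dlx2, and Lamb3 (0.978), Prom2 (0.971) and Dusp2 (0.965) for Dlx3. They were Tmem63a (0.896), Moxd1 (0.895) and Prokr1 (0.877) for Dlx4, Rims3 (0.955), Scel (0.950) and Bambi (0.949) for Dlx5, and Fam84a (0.960), Itgb6 (0.951) and Igfbp7 (0.951) for Dlx6. All these coefficients include the differences between the 4 groups.

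The genes around the members were described from their positions. Of 18 annotated neighbours within 50 kilobases, 3 were in the count table. Metap1d, a methionine aminopeptidase gene 2919 bases from Dlx1, averaged 18.02 CPM in stabilized and 8.88 CPM in control buds at E16.5 (log2 fold change 1.02, edgeR adjusted p = 0.000234) and 18.8 CPM against 30.7 CPM at E13.5 (log2 fold change -0.71, edgeR adjusted p = 0.0270), so that it rose at E16.5 and fell at E13.5. Itga3, an integrin gene 43318 bases from Dlx3, had log2 fold changes of 0.81 at E16.5 and 0.82 at E13.5 (edgeR adjusted p = 0.000146 and 0.00134). The third, Gm11514, was too low to test.

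Lists of related genes show how the members stand among their families and pathways; they were chosen with earlier results of these data known. Of 16 tested LIM-homeobox genes and cofactors, 7 rose and 4 fell at E16.5, and 5 rose and none fell at E13.5, against backgrounds of 22.2% higher and 19.4% lower at E16.5 and of 9.58% higher and 5.29% lower at E13.5. The median log2 fold change of this list was 1.57 at E16.5 and 0.17 at E13.5. Lmo3, a LIM-only protein that binds LDB1, averaged 11.9 ± 4.67 CPM in stabilized and 0.0117 ± 0.0261 CPM in control buds at E16.5 (edgeR adjusted p = 6.80e-08), and at E13.5 it averaged 4.35 ± 2.03 CPM in stabilized buds with no count in controls, at least 186-fold higher. Lmo1 rose to 29.0 ± 4.24 CPM in stabilized buds, against 9.69 ± 1.10 CPM in controls, at E16.5, while at E13.5 it had 22.2 ± 2.37 CPM against 21.7 ± 3.30 CPM (edgeR adjusted p = 0.953). Ssbp2, which stabilizes LDB1 complexes, averaged 110 ± 16.6 CPM in stabilized and 37.1 ± 5.66 CPM in control buds at E16.5 (log2 fold change 1.56 ± 0.12, edgeR adjusted p = 7.07e-09), and 86.8 ± 2.07 CPM against 96.0 ± 11.6 CPM at E13.5 (edgeR adjusted p = 0.574). Lmo4 fell at E16.5, with 199.5 ± 29.1 CPM in stabilized and 509 ± 30.8 CPM in control buds (log2 fold change -1.35 ± 0.13, edgeR adjusted p = 1.46e-07), and had 131.5 ± 13.3 CPM against 113 ± 26.9 CPM at E13.5 (edgeR adjusted p = 0.411). Ldb1 itself, the obligate partner of LHX2, had 279 ± 41.6 CPM in stabilized and 284 ± 25.4 CPM in control buds at E16.5 (edgeR adjusted p = 0.899).

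Of 23 hair follicle transcription factors, 14 rose and 1 fell at E16.5, and 13 rose and 3 fell at E13.5, with median log2 fold changes of 1.13 and 1.11. Over all tested genes, 22.2% were higher and 19.4% lower at E16.5, and 9.58% higher and 5.29% lower at E13.5. Trp63, the master factor of stratified epithelia, averaged 732 ± 41.2 CPM in stabilized and 92.1 ± 12.1 CPM in control buds at E16.5 (log2 fold change 2.99 ± 0.12, edgeR adjusted p = 1.41e-12), while at E13.5 it had 455 ± 40.4 CPM against 414 ± 50.8 CPM (edgeR adjusted p = 0.557). Prdm1 averaged 94.6 ± 23.2 CPM in stabilized and 4.21 ± 0.613 CPM in control buds at E16.5, and 24.6 ± 8.96 CPM against 2.38 ± 0.792 CPM at E13.5. Lef1, the DNA-binding partner of β-catenin, averaged 165 ± 30.7 CPM in stabilized and 26.8 ± 7.02 CPM in control buds at E16.5 (log2 fold change 2.62 ± 0.20, edgeR adjusted p = 3.11e-09), but was lower in stabilized buds at E13.5, with 331 ± 39.9 CPM against 611 ± 124 CPM (log2 fold change -0.88 ± 0.21, edgeR adjusted p = 0.00556). Cux1, a CUT-homeobox gene of the follicle, averaged 1391 ± 283 CPM in stabilized and 173 ± 16.46 CPM in control buds at E16.5 (log2 fold change 3.00 ± 0.18, edgeR adjusted p = 1.59e-10).

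Of 25 Bmp pathway genes, 17 rose and 1 fell at E16.5, and 10 rose and 2 fell at E13.5, with median log2 fold changes of 0.91 and 0.51. The shares of all tested genes were 22.2% higher and 19.4% lower at E16.5, and 9.58% higher and 5.29% lower at E13.5. The ligand gene Bmp4 averaged 136 ± 18.02 CPM in stabilized and 1.45 ± 0.640 CPM in control buds at E16.5 (log2 fold change 6.55 ± 0.33, edgeR adjusted p = 6.27e-11), and 318 ± 63.3 CPM against 83.3 ± 18.7 CPM at E13.5 (log2 fold change 1.93 ± 0.29, edgeR adjusted p = 0.000140). Bmp2 averaged 188 ± 31.2 CPM in stabilized and 3.93 ± 1.47 CPM in control buds at E16.5 (log2 fold change 5.58 ± 0.24, edgeR adjusted p = 2.87e-12), but at E13.5 it had 263 ± 31.9 CPM against 265 ± 47.5 CPM. Id3, a target of Bmp signals, had 294 ± 46.8 CPM in stabilized and 28.0 ± 7.39 CPM in control buds at E16.5 (edgeR adjusted p = 2.73e-09), and 339 ± 105 CPM against 273 ± 72.0 CPM at E13.5 (edgeR adjusted p = 0.490). Sostdc1, a secreted inhibitor of Bmp and Wnt signals, rose at both stages, with 638 ± 119 CPM in stabilized and 269 ± 10.3 CPM in control buds at E16.5, and 477 ± 105 CPM against 46.1 ± 7.81 CPM at E13.5.

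Of 38 tested homeobox genes outside the Hox clusters, Cux1 among them, 16 rose and 10 fell at E16.5, and 12 rose and 6 fell at E13.5, with median log2 fold changes of 0.49 and 0.36. Beside them, 22.2% of all tested genes were higher and 19.4% lower at E16.5, and 9.58% higher and 5.29% lower at E13.5. Meis2 averaged 451 ± 64.1 CPM in stabilized and 50.8 ± 6.02 CPM in control buds at E16.5 (log2 fold change 3.15 ± 0.13, edgeR adjusted p = 2.39e-12). En1, a gene of ventral ectoderm, averaged 36.4 ± 23.0 CPM in stabilized and 0.0482 ± 0.0728 CPM in control buds at E16.5, and 9.79 ± 4.41 CPM against 0.00744 ± 0.0149 CPM at E13.5. Irx3 fell at both stages, with 35.3 ± 10.5 CPM in stabilized and 333.5 ± 42.7 CPM in control buds at E16.5 (log2 fold change -3.24 ± 0.21, edgeR adjusted p = 4.11e-10), and 200.5 ± 62.1 CPM against 597 ± 71.9 CPM at E13.5 (log2 fold change -1.57 ± 0.22, edgeR adjusted p = 3.68e-05). This list thus held genes that moved in either direction.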

How the data were processed

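The 18 libraries of mouse mammary bud epithelium were made with the Ovation SoLo system, per the labels' protocols. In the submitters' processing notes stand Salmon 0.99.0, Trimmomatic 0.39, FastQC 0.11.8, MultiQC 1.9, DESeq2 3.15 and the build mm10. Settings, strand and annotation release: not given in the sources used here. The main table holds estimated counts per Ensembl gene as deposited, already whole numbers in the file. A second deposited table holds a normalized signal whose ratio to the counts varies by gene and library; it served for 1 alternative.

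In edgeR 4.0.16 (R 4.3.3), filterByExpr (minimum count 10) kept 17269 of 24376 genes. After TMM scaling, the 4 group means were estimated from all 18 libraries together by robust quasi-likelihood fits (common dispersion 0.25). Genes were called at an adjusted p under 0.05 (Benjamini-Hochberg, 17269 genes). These p-values reflect differences between pools; which of the litters, at least 3, gave which library is unknown here. The code was tested on simulated data. Alternatives were RLE scaling, DESeq2 1.42.0, other filters, 1 stage alone, a replicate block, the deposited scaling and left-out libraries. Profiles were compared on log2 CPM (prior count 2).

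The members and lists were chosen with earlier results of these data known. Named by rule were the 9 members, Ctnnb1, Krt14, up to 4 genes per list with the smallest adjusted p over both genotype comparisons, the 3 most similar genes per member and called neighbours; list members that did not pass, and marker genes, could be given with values. Errors are SD for CPM (n = 5 per group at E16.5, n = 4 at E13.5) and SE for log2 fold changes. A floor of 3 counts stands in for groups at 0.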

Additional observations from a re-analysis of the deposited data

Results flagged for a closer look

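Single libraries stood apart in 2 of the 36 sets of gene and group that were checked, where about 1 in 20 does by chance. Msx2 had 14.7 CPM in E13.5 control replicate 2, well below the other 3 controls. Dlx1 had 2.51 CPM in E13.5 control replicate 1, well above the other 3 controls.

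For 6 genes the genotype effect differed between stages by the test of the difference itself, always with the larger effect at E16.5. The log2 difference (E16.5 minus E13.5) was 2.53 for Lhx2, 4.48 for Msx1, 4.05 for Msx2, 5.49 for Dlx1, 5.12 for Dlx2 and 2.42 for Dlx3. The value for Dlx1 rests on the same E13.5 control replicate 1, without which it was 1.62 (edgeR adjusted p = 0.637).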

How the results depend on the processing

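Of 1124 values of the 9 genes over all alternatives, 1059 kept direction and side of the threshold, 44 lost and 17 gained the call, and 4 reversed; the causes were not tested. With the libraries of the stage alone, 5 genes in place of 8 were called at E13.5, Msx2 and Dlx1 missing the threshold and Dlx6 the filter on low counts. Over all tested genes, 1651 were called at E13.5 in that fit, against 2569 with all 18 libraries, and 1712 with the deposited scaling. The reversals came from left-out libraries and touched uncalled values: the stage change of Dlx1 in controls ran from -4.16 to 0.62 on the log2 scale, and the difference of genotype effects from -0.50 to 1.07 for Dlx4 and from -0.91 to 0.19 for Dlx5. Same-numbered libraries did not deviate together (correlations of deviations from the group means from -0.0995 to 0.172), so the numbers were not taken as pairs. With the replicate number as a block (replicate block), 9 genes were called at E16.5, Dlx4 added, 6 at E13.5, Msx1 and Msx2 lost, and 4 for the difference of effects, Lhx2 (2.48, adjusted p = 0.0617) and Dlx1 (4.74, adjusted p = 0.117) lost. DESeq2 called 9 genes at E16.5 and 8 at E13.5. Low control counts limit the precision most for Dlx1 and Dlx6, which had libraries at 0 in both control groups.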
